A study of Homo sapiens with 15 samples.

Results

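MET and 9 other receptor tyrosine kinases with known roles in cancer (RET, AXL, MERTK, ALK, ROS1, DDR1, DDR2, PDGFRA and PDGFRB) were followed in human bronchial epithelial BEAS-2B cells, an established line, through long culture with polyethylene terephthalate nanoplastics (PET-NPLs). The 10 genes were taken by symbol, outside the EGFR and FGFR families, from the 28395 genes of the count table, and all 10 were among the 16740 genes with enough counts to be tested. Exposed cells received PET-NPLs at 50 µg/mL in medium renewed through the culture, and each exposed group had passage-matched control cells without particles. All cells grew in the same serum-containing medium. Sequencing covered 15 samples, with 2 control and 2 exposed ones at 24 h, the same numbers at 15 weeks, and 3 controls with 4 exposed samples at 30 weeks.

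Receptor tyrosine kinases span the plasma membrane, dimerise when a ligand binds outside the cell, and phosphorylate tyrosines on each other that recruit adaptor proteins. Signals then pass to ERK, PI3 kinase and phospholipase C, and ubiquitin ligases and phosphatases switch the receptor off. MET is the receptor of hepatocyte growth factor (HGF) and is prominent in epithelial cells, and in lung tumours it is activated by amplification or by loss of an exon. ALK, RET and ROS1 act in lung cancer mainly as gene fusions, which counts per gene do not show. DDR1 and DDR2 bind collagen, DDR1 mostly in epithelial and DDR2 mostly in mesenchymal cells, and PDGFRA and PDGFRB are typical of mesenchymal cells.

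The libraries held 23143202 to 31459990 counts on genes. Levels are given as CPM, that is counts scaled by the TMM method to a fixed library size, and levels of different genes are compared only as CPM per kilobase of exon. Genes that reached at most 3 counts in all libraries of a group are called at the floor, a level that corresponded to 0.0885 to 0.129 CPM in single libraries. The 24 h and 15-week samples form batch 1 and the 30-week samples batch 2 per the labels, so later time and batch cannot be told apart, while each comparison of exposed with control cells lies within a batch. Replicates at 30 weeks spread more (biological coefficient of variation 0.201) than at 24 h (0.108) or 15 weeks (0.0782). Exposed replicate 2 at 30 weeks stood apart, with correlations of 0.976 to 0.981 to the other exposed samples, which correlated with each other at 0.991. Nothing in the labels says that replicates were separate cultures, so p-values measure the spread between these samples, which may be technical.

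The labelled cell type was checked against its markers. Of 18 epithelial markers, 6 to 10 were at the floor in each group, among them the epithelial transcription factors GRHL2 and OVOL1 and the lung factor NKX2-1, while keratins carried the list. Of 15 mesenchymal markers, 13 were above 3 counts in every sample of each group. In bulk RNA a smaller share of cells of a type and less RNA per cell cannot be told apart.

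The receptors differed widely in level. In the 24 h controls AXL, a receptor of GAS6, stood highest at 149.95 ± 9.41 CPM per kilobase (SD, n = 2), followed by MET at 58.6 ± 0.754, DDR1 at 4.25 ± 0.0548 and PDGFRB at 1.73 ± 0.246. DDR2 followed at 0.423, ALK at 0.231, ROS1 at 0.151 and MERTK at 0.109 CPM per kilobase, and the samples of these neighbours in the order did not overlap. PDGFRA and RET came last, overlapped each other and were at or near the floor. The order changed with time in culture. In the 30-week controls AXL was still highest at 217 ± 24.2 CPM per kilobase (SD, n = 3), but PDGFRB came next at 13.4 ± 3.15 and MET had dropped to the third place at 7.19 ± 1.06. In exposed cells at 30 weeks MET held the second place at 20.6 ± 3.51 (SD, n = 4), above PDGFRB at 11.9 ± 4.09, and DDR2 with 6.66 ± 0.760 stood above DDR1 with 2.93 ± 0.444. The samples of MET and PDGFRB did not overlap in either of these groups.

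In the comparison of exposed with control cells, 0 of the 10 receptors differed at 24 h or at 15 weeks (edgeR quasi-likelihood test, Benjamini-Hochberg adjusted p under 0.05), beside 0% of all tested genes at both times. None of the 10 had an unadjusted p under 0.05 at either time, and DESeq2 and limma-voom also called 0. At 30 weeks 3 of the 10 differed, MET and DDR2 upregulated and DDR1 downregulated, beside 23.7% of all tested genes. A share of 3 in 10 is near that background, so the count as such says little about these receptors. The median log2 fold change was 0.21 over the 10 receptors and 0.0078 over all tested genes. For 4 receptors (MET, DDR2, DDR1 and RET) the exposed and control samples at 30 weeks did not overlap, as was the case for 27.3% of tested genes.

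**Figure D1:**
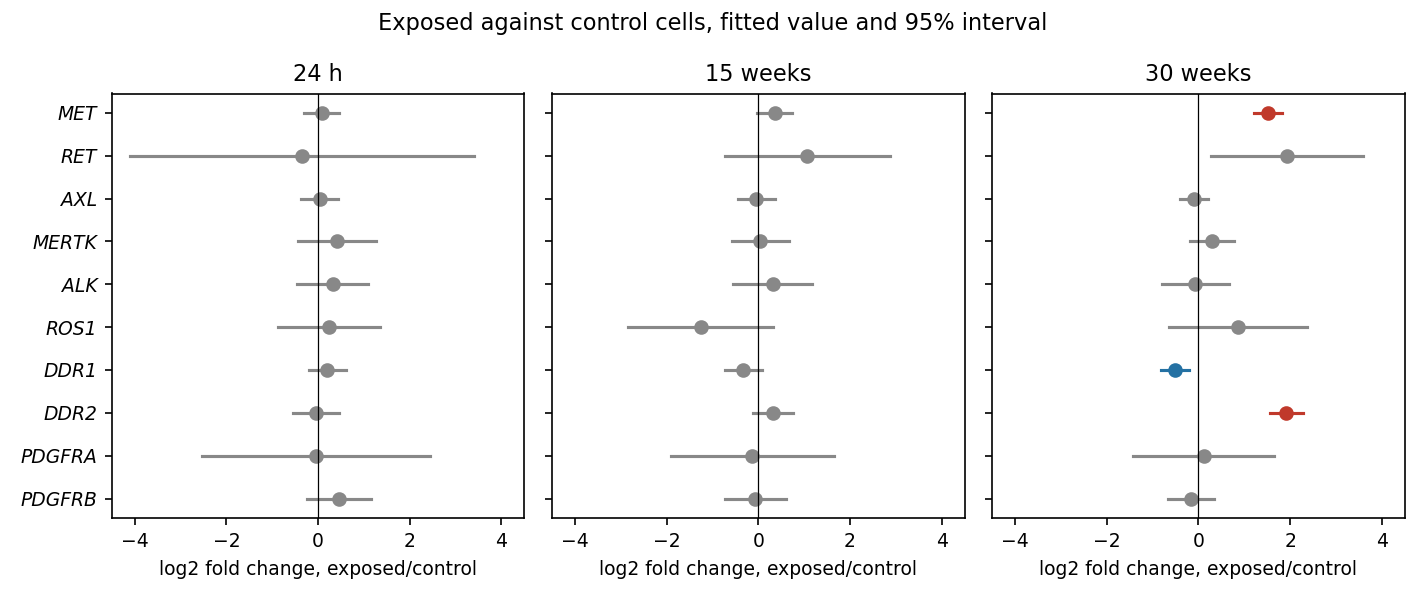
Fitted log2 fold change of exposed against control cells (horizontal axis) for the 10 receptors at 24 h, 15 weeks and 30 weeks, with 95% intervals as lines. Red and blue points passed an adjusted p of 0.05 upward and downward, which happened at 30 weeks for MET (1.52), DDR2 (1.91) and DDR1 (-0.52). The lines of RET, ROS1 and PDGFRA are wide because these genes had few counts.

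MET (Entrez gene 4233, chromosome 7, 116672196 to 116798377, plus strand, GRCh38.p14) was measured in every library with at least 1021 counts. At 24 h its level was 419 and 427 CPM in the controls and 439.6 and 453 CPM in exposed cells. At 15 weeks the controls were at 251 and 258 CPM and the exposed samples at 328 and 327 CPM. At 30 weeks the 3 controls stood at 43.9, 59.1 and 52.8 CPM and the 4 exposed samples at 159.7, 178, 135 and 121 CPM. MET stood lower at each later time in both arms, and the 30-week exposed samples, although all above their controls, were all below each sample of 24 h and 15 weeks. The upregulation at 30 weeks was 1.52 on the log2 scale (95% interval 1.21 to 1.82, edgeR adjusted p = 1.11e-06), a 2.86-fold difference in a gene that had fallen in both arms. At 15 weeks the log2 fold change was 0.36 (interval -0.017 to 0.74, adjusted p = 1 in edgeR). That 15-week difference was called when the 4 samples of 15 weeks were fitted alone (adjusted p = 0.0171, edgeR), a fit that calls 1.96% of all genes. Both exposed samples of 15 weeks lay above both controls, as they did for RET and DDR2, while for DDR1 both lay below. At 24 h both exposed samples likewise lay above both controls for MET, MERTK, PDGFRB and DDR1, for DDR1 in the opposite direction to 15 weeks. With so few samples this separation says little, and its share over all genes was not computed. The 30-week change exceeded the 15-week change by 1.16 (standard error 0.226, adjusted p = 0.0056, edgeR), where 4.74% of all genes showed such a difference.

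Over time, MET fell by 0.73 on the log2 scale from 24 h to 15 weeks in the controls (adjusted p = 0.00663, edgeR). The exposed cells were at -0.45 over the same interval, which did not pass the test (adjusted p = 0.0782). From 15 to 30 weeks MET fell by 2.29 in the controls and by 1.14 in exposed cells, both past the threshold. These values cross the batches.

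DDR2 (Entrez gene 4921, chromosome 1, 162630863 to 162787405, plus strand), a receptor of fibrillar collagen, took another course. At 24 h it stood at 4.85 and 4.55 CPM in the controls and at 4.89 and 4.23 CPM in exposed cells. At 15 weeks it stood at 52.6 and 39.1 CPM in the controls and at 53.2 and 61.4 CPM in exposed cells. At 30 weeks the controls were at 14.0, 22.4 and 22.3 CPM and the exposed samples at 74.5, 84.7, 64.2 and 72.1 CPM. DDR2 had risen strongly by 15 weeks with and without particles, and by 30 weeks the controls had come down while the exposed samples lay above every other sample of the series.

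From 24 h to 15 weeks the log2 fold change of DDR2 was 3.29 in the controls (9.75-fold, adjusted p = 7.05e-08) and 3.65 in exposed cells (12.6-fold, adjusted p = 2.7e-08, both edgeR). From 15 to 30 weeks it fell by 1.23 in the controls (adjusted p = 7.96e-05), while the change of 0.37 in exposed cells did not pass the test (interval -0.022 to 0.76, adjusted p = 0.114). At 30 weeks exposed cells had 3.77-fold more DDR2 than controls, a log2 fold change of 1.91 (interval 1.55 to 2.28, adjusted p = 5.99e-07). The same difference at 15 weeks was 0.32 (interval -0.12 to 0.77, adjusted p = 1), and the highest control (52.6 CPM) and the lowest exposed sample (53.2 CPM) nearly met. The test of 30 against 15 weeks gave a difference of 1.59 between the changes (standard error 0.267, adjusted p = 0.0018, edgeR).

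DDR1 (Entrez gene 780, chromosome 6, 30880970 to 30900156, plus strand), the epithelial collagen receptor, moved the other way and by less. It was at 38.4 and 39.1 CPM in the 24 h controls and at 49.4 and 39.9 CPM in exposed cells. At 15 weeks the controls had 29.5 and 28.0 CPM and the exposed samples 22.2 and 23.8 CPM. At 30 weeks the controls had 43.9, 30.75 and 40.4 CPM and the exposed samples 28.4, 21.2, 26.6 and 30.69 CPM. The groups at 30 weeks touched: the lowest control and the highest exposed sample were 30.75 and 30.69 CPM. At 30 weeks the log2 fold change of DDR1 in exposed against control cells was -0.52 (interval -0.82 to -0.22, adjusted p = 0.0153, edgeR). The call was lost when the 30-week samples were fitted alone (adjusted p = 0.0665) and without control replicate 1 (adjusted p = 0.101), whereas MET and DDR2 passed in all 17 alternatives. The fit of 30 weeks alone called 15.3% of all genes, and it gave adjusted p-values of 0.000259 for MET and 0.000109 for DDR2. DDR1 lies in the major histocompatibility region, for which alternate haplotype sequences exist, and whether these were in the mapping reference is not given in the sources used here.

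**Figure D2:**
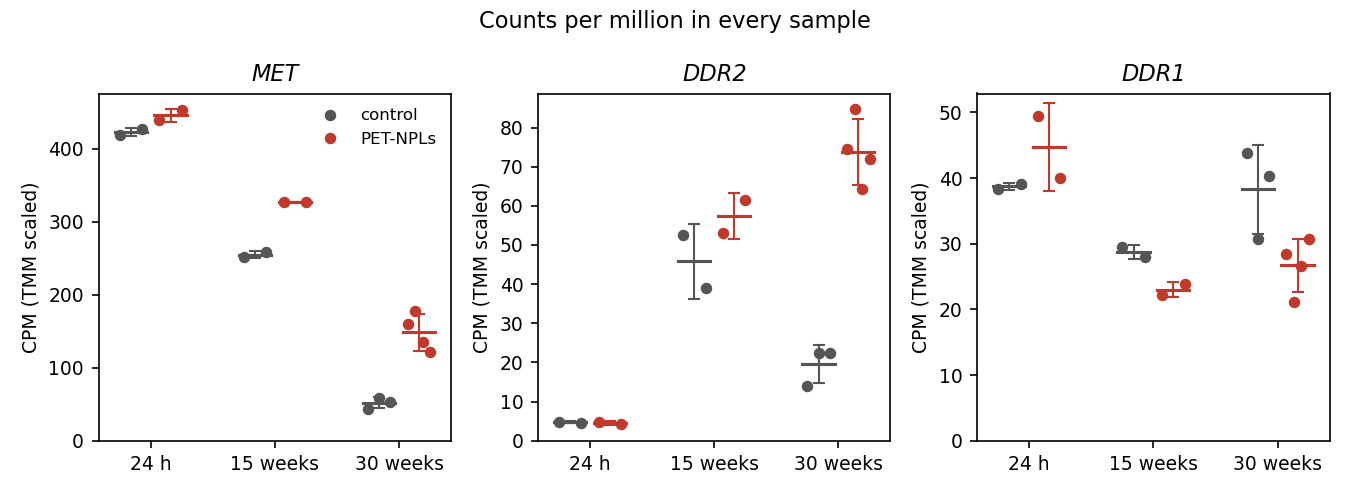
Level of MET, DDR2 and DDR1 (vertical axes, TMM-scaled CPM) in each sample at 24 h, 15 weeks and 30 weeks, controls in grey and exposed cells in red, with the mean and SD as bars. MET falls from 419 to 453 CPM at 24 h to 43.9 to 59.1 CPM in the 30-week controls and 121 to 178 CPM in exposed cells, DDR2 drops back in the 30-week controls, and the DDR1 samples of the 2 groups at 30 weeks nearly touch.

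The cell type markers moved with time and exposure as well. The summed level of the epithelial markers was 2125 to 2464 CPM in the 24 h controls, 317 to 414 CPM in the 30-week controls and 882.6 to 1099.8 CPM in exposed cells at 30 weeks, and KRT8, KRT18 and KRT19 were the 3 members called upregulated there of 9 tested. The summed level of the mesenchymal markers was 2181 to 2679.9 CPM in the 30-week controls and 2023 to 2315 CPM in exposed cells, with 3 of 14 tested markers upregulated and 5 downregulated. Of 9 tested skeletal muscle markers 7 were downregulated at 30 weeks. The sum of the list was 403 to 479 CPM in controls against 76.8 to 94.9 CPM in exposed cells. Earlier the controls had 155 to 182 CPM at 24 h and 111 to 129 CPM at 15 weeks. Exposed cells then had 159 to 169 and 118 to 130 CPM. From 15 to 30 weeks, across the batches, 7 of the 9 were upregulated and 1 downregulated in controls (50.3% of all genes changed). In exposed cells 1 was upregulated and 2 downregulated (46.0% of all genes). The immune and endothelial markers summed to at most 31.2 CPM in any sample, with CD3E at the floor in each group. All 3 tested markers of that list were called at 30 weeks, CDH5 (at least 3.86-fold higher in exposed cells, with the controls at the floor) and VWF (1.71) upregulated and CD68 (-0.95) downregulated. The share called at 30 weeks was 33.3% of tested epithelial, 57.1% of mesenchymal and 77.8% of muscle markers, beside 23.7% of all tested genes. MYOG (59 to 89 counts), DES (37 to 53) and LUM (14 to 23) passed the count filter only through the 30-week controls. Elsewhere they had at most 3, 6 and 8 counts in turn. CDH5 passed it through exposed cells at 30 weeks (3 to 21 counts). Calls of such genes follow largely from the filter, so these counts and shares are descriptive only. The part of these cell type markers in the changes of MET, DDR1 and DDR2 was not tested. The 6 most abundant small noncoding RNAs took 22.3% to 31.03% of the counts in the 30-week controls and 17.0% to 21.5% in exposed cells. Without them the log2 fold changes at 30 weeks were 1.52 for MET and 1.92 for DDR2.

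RET, the receptor of the GDNF family, was near the limit of detection. Its counts were 3 and 0 in the 24 h controls, 0 and 2 in exposed cells at 24 h, 15 and 2 in the 15-week controls and 19 and 16 in exposed cells at 15 weeks. At 30 weeks the controls had 6, 4 and 0 counts and the exposed samples 11, 17, 10 and 19 counts. Each exposed sample at 30 weeks had more RET than each control, but the log2 fold change of 1.93 (interval 0.28 to 3.59) did not pass the test over all genes (adjusted p = 0.0859, edgeR). It passed with limma-voom (adjusted p = 0.048), the only alternative of 16 that called it. In exposed cells RET rose from 24 h to 15 weeks (adjusted p = 0.0365, edgeR), at least 4.58-fold against the floor of 3 counts. The controls were at 2.24 on the log2 scale over the same interval, with overlapping groups (adjusted p = 0.208, edgeR). The difference between these changes was not tested.

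AXL and MERTK share the ligand GAS6, and MERTK also binds protein S. AXL was the most abundant of the 10 receptors in every group, with 736 to 804 CPM in the 24 h controls, 555 to 659 CPM in the 15-week controls and 969.6 to 1189.7 CPM in the 30-week controls. Exposed cells had 776 to 805 CPM at 24 h, 584 to 591 CPM at 15 weeks and 790.3 to 1218 CPM at 30 weeks. The exposed and control ranges overlapped at all 3 times, and the log2 fold change at 30 weeks was -0.092 (interval -0.40 to 0.21, adjusted p = 0.696, edgeR), which turned positive without exposed replicate 2 (0.020). From 15 to 30 weeks AXL rose in both arms, by 0.87 in the controls and by 0.83 in exposed cells.

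MERTK was low, with 13 counts in each 24 h control, 16 and 14 counts in exposed cells at 24 h, 69 and 67 in the 15-week controls and 66 and 69 in exposed cells at 15 weeks. At 30 weeks it had 34, 71 and 58 counts in controls and 83, 54, 78 and 70 counts in exposed cells. MERTK rose from 24 h to 15 weeks in both arms, by 2.19 in controls (adjusted p = 0.000242) and 1.82 in exposed cells (adjusted p = 0.000928) on the log2 scale. Its difference between exposed and control cells at 30 weeks was 0.30 (interval -0.18 to 0.78, adjusted p = 0.374).

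PDGFRB, the receptor of the PDGF-B chain, was at 13.6 and 11.1 CPM in the 24 h controls and at 19.4 and 14.7 CPM in exposed cells. At 15 weeks it was at 66.9 and 73.6 CPM in the controls and 57.0 and 77.1 CPM in exposed cells, a rise of 2.51 and 1.97 on the log2 scale (adjusted p = 4.89e-05 and 0.000344). At 30 weeks the controls spanned 74.8 to 119 CPM and the exposed samples 45.5 to 113 CPM. The groups overlapped, and the log2 fold change was -0.16 (interval -0.67 to 0.34, adjusted p = 0.67). Exposed replicate 2 was the lowest, and without it the value was 0.043.

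PDGFRA had 0 to 11 counts in every library. Its counts were 2 and 4, 3 and 2, 10 and 7, and 8 and 7 in the control and exposed groups of 24 h and 15 weeks in turn, 0, 8 and 7 in the 30-week controls, and 1, 11, 6 and 5 in exposed cells. A difference in PDGFRA was not detectable at this depth (interval of the log2 fold change at 30 weeks -1.42 to 1.65).

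ALK and ROS1, both known in lung cancer as fusions, were low and became lower. ALK had 63 and 35 counts in the 24 h controls and 59 and 46 in exposed cells, 19 and 28 in the 15-week controls and 24 and 32 in exposed cells, 13, 13 and 23 in the 30-week controls and 14, 15, 16 and 22 in exposed cells. It fell by 1.25 on the log2 scale from 24 h to 15 weeks in each arm (adjusted p = 0.0287 in controls and 0.0247 in exposed cells). ROS1 had 39 and 38 counts in the 24 h controls, 45 and 33 in exposed cells, 7 and 16 in the 15-week controls and 2 and 7 in exposed cells. In the 30-week samples it had 0, 2 and 6 counts in controls and 5, 4, 5 and 7 in exposed cells. ROS1 fell by 1.93 in controls (adjusted p = 0.024) and by 3.43 in exposed cells (adjusted p = 0.00126) from 24 h to 15 weeks. The differences between exposed and control cells at 30 weeks were -0.067 for ALK (interval -0.80 to 0.66) and 0.86 for ROS1 (interval -0.64 to 2.36), and neither passed the test.

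**Figure D3:**
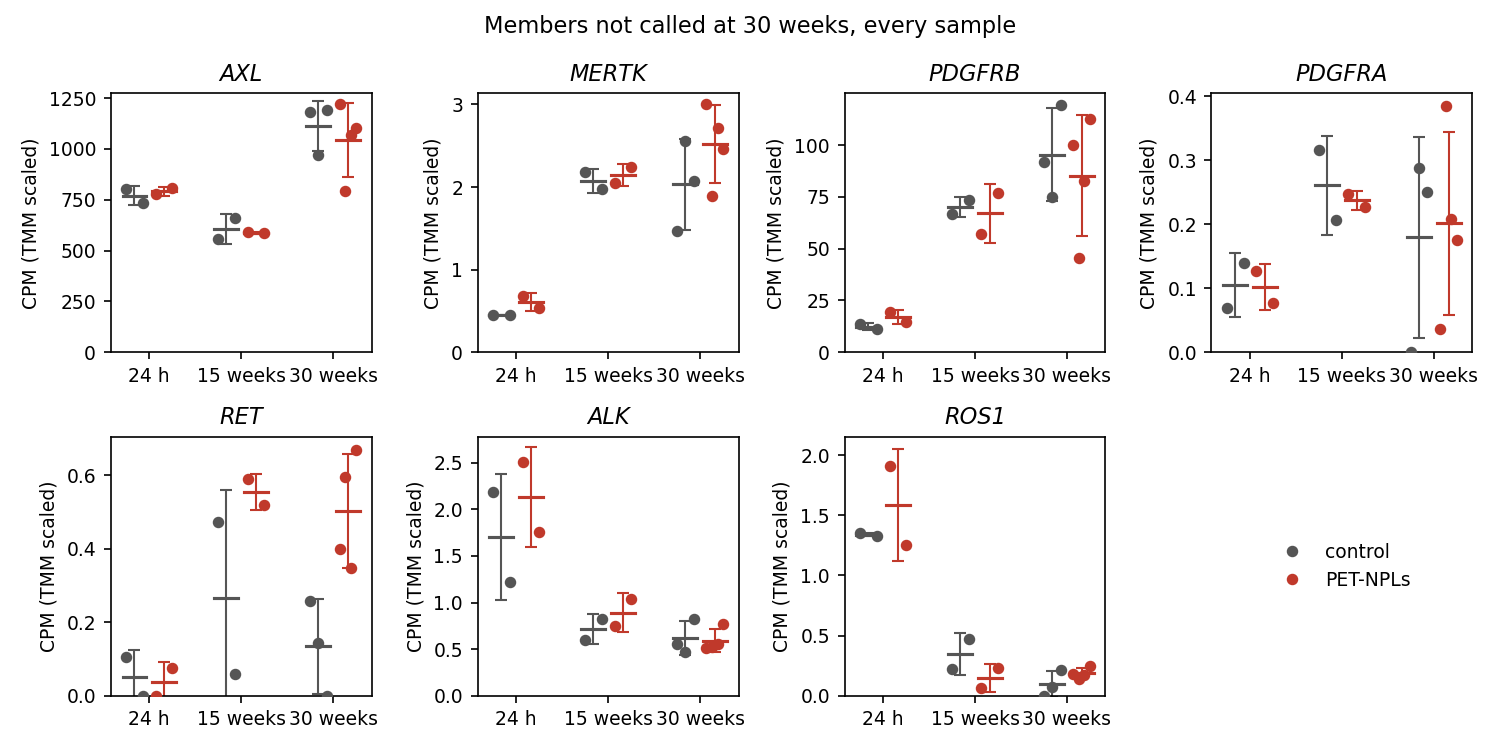
Level of the 7 receptors not called at 30 weeks (vertical axes, TMM-scaled CPM, a scale for each gene) in each sample, controls in grey and exposed cells in red, with the mean and SD as bars. The groups of 30 weeks overlap for all but RET, where the 4 exposed samples (0.348 to 0.669 CPM) lie above the 3 controls (0 to 0.258 CPM).

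In time-in-culture comparisons many receptors moved, as did many genes. From 24 h to 15 weeks 6 of the 10 changed in controls (24.9% of all genes), DDR2, PDGFRB and MERTK upward and MET, ALK and ROS1 downward. Without control replicate 1 at 15 weeks this count was 3. In exposed cells 7 changed (26.0% of all genes), RET, MERTK, DDR2 and PDGFRB upward and ALK, ROS1 and DDR1 downward. From 15 to 30 weeks 3 changed in controls (50.3% of all genes) and 2 in exposed cells (46.0%), where the batches differ as well. DDR1 in exposed cells fell by 0.96 from 24 h to 15 weeks (adjusted p = 0.00147), while the controls were at -0.43 (adjusted p = 0.112), and the difference between these changes was not tested.

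Of the 17 ligands of the listed receptors other than collagens, 15 were tested. After 30 weeks of exposure 4 of them were upregulated and 6 downregulated, beside 23.7% of all tested genes called in either direction, and the median log2 fold change was -0.71. The same counts were found with 30 weeks fitted alone, without exposed replicate 2 and without control replicate 1. HGF, the ligand of MET, had 0 counts in all 15 libraries, which allows at most 3 counts, or 0.0885 to 0.129 CPM, in each. GAS6, the ligand of AXL, was upregulated by 0.71 (adjusted p = 0.000591, edgeR). PROS1, the gene of protein S, was upregulated by 1.20 (adjusted p = 0.000283, edgeR). GAS6 had been at 226 and 251 CPM in the 24 h controls and was at 72.0, 49.8 and 56.1 CPM in the 30-week controls, against 101, 104, 93.1 and 90.0 CPM in exposed cells.

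Of 5 tested ligands of the RET system 3 were downregulated: ARTN (-1.92, adjusted p = 2.51e-05), GDNF (-1.44, adjusted p = 0.000947) and GDF15 (-1.06, adjusted p = 0.00275). NRTN (-0.59, adjusted p = 0.409) and PSPN (0.83, adjusted p = 0.317) did not pass the test. GDNF had at most 0.280 CPM at 24 h, stood at 11.8, 6.75 and 10.7 CPM in the 30-week controls and at 4.78, 3.08, 3.54 and 2.96 CPM in exposed cells. Its co-receptor GFRA1, which presents GDNF to RET, was upregulated by 1.68 (adjusted p = 7.15e-05), with 11.5, 15.0 and 19.8 CPM in controls and 55.3, 28.2, 52.5 and 61.9 CPM in exposed cells. Exposed cells at 30 weeks thus had lower GDNF and higher GFRA1 than each control. Of the other listed co-receptors of RET, GFRAL had 0 counts in all 15 libraries, GFRA3 at most 6 and GFRA4 at most 2 counts. GFRA2 had at most 29 counts and did not pass the test at 30 weeks (0.44, adjusted p = 0.779, edgeR). Whether ARTN, GDF15 or the other ligands act through RET in these cells was not tested.

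The PDGF chains split. PDGFB (1.47, adjusted p = 0.000382) and PDGFD (1.72, adjusted p = 0.00194), which act on PDGFRB, were upregulated, PDGFA was downregulated (-0.80, adjusted p = 0.00313), and PDGFC was at -0.19 (adjusted p = 0.289). MDK, listed as a ligand of ALK, was downregulated (-0.71, adjusted p = 0.00814), and PTN, another, was at -0.92 without passing the test (adjusted p = 0.573). ALKAL2, also a listed ligand of ALK, was at -0.77 with overlapping groups and did not pass (adjusted p = 0.151, edgeR). ALKAL1 had 0 counts in all 15 libraries. NELL2, the ligand of ROS1, had 0.686 to 1.72 CPM in the 30-week controls and was at the floor in exposed cells, at least 10.2-fold lower. It passed the count filter only through those controls, so its place among the called ligands follows largely from the filter.

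Fibrillar collagen chains, which are among the ligands of DDR1 and DDR2, counted 1 upregulated and 3 downregulated of 9 tested at 30 weeks (44.4%, beside 23.7% of all genes). Other collagens were not in this list. COL1A2, a chain of type I collagen, was upregulated by 3.28 on the log2 scale (adjusted p = 0.000956), with 0, 0.650 and 0.286 CPM in controls and 4.02, 5.01, 1.74 and 2.04 CPM in exposed cells. COL1A1, the partner chain of the same collagen, went the opposite way (-2.91, adjusted p = 3.02e-05), with 89.0, 21.5 and 55.3 CPM in controls and 7.10, 6.38, 5.87 and 10.1 CPM in exposed cells. COL24A1 (-4.59) and COL27A1 (-0.94) were also downregulated.

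Of 15 tested co-receptors, ligand proteases and their inhibitors, 5 were upregulated and 3 downregulated at 30 weeks (53.3%, beside 23.7% of all genes). Besides GFRA1, SPINT1, which inhibits the proteases that activate HGF, was upregulated by 1.61, and TIMP3 (-1.39), an inhibitor of receptor shedding, and PLAU (-1.07), the urokinase protease, were downregulated. With 30 weeks fitted alone the count was 5 in place of 8. Among 15 negative regulators 4 were upregulated and 2 downregulated (40% beside the same 23.7%), with LRIG1 (-1.21), which lowers the amount of several receptors, and the phosphatases PTPRB (1.12) and PTPRJ (0.74) as the largest changes, followed by ERRFI1 (-0.44). That count of 6 was 3 with 30 weeks fitted alone and 3 without control replicate 1.

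Of 24 tested adaptors 2 were upregulated and 3 downregulated, 20.8% beside 23.7% of all genes. IRS1, the adaptor of the insulin receptors, changed most (-1.62), followed by PIK3R3 (-0.88), PLCG1 (0.60, with overlapping groups) and GAB2 (-0.57). This count of 5 depended on single libraries, with 9 called without exposed replicate 2, 3 without control replicate 1 and 2 with 30 weeks fitted alone. Of 20 transcripts known to rise with ERK signalling, 2 were upregulated and 1 downregulated, 15% of the list beside 23.7% of all genes, with a median of -0.14. DUSP4 (1.31), an ERK phosphatase, and EPHA4 (0.68) were upregulated and CCND1, cyclin D1, was downregulated (-1.36). Without exposed replicate 2 the count was 7, with 5 downregulated.

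The other receptor tyrosine kinases outside the EGFR and FGFR families numbered 40, of which 30 were tested, and 7 were upregulated and 7 downregulated at 30 weeks (46.7%, beside 23.7% of all genes) with a median of 0.033. FLT4 (-4.55), EPHB3 (-4.04) and MUSK (-3.53) had the largest decreases among those with an average of 1 CPM, and KIT, the receptor of stem cell factor, the largest increase (3.23). KIT was low in the 30-week controls only, with 0.774, 0.830 and 1.14 CPM there, 8.91, 10.3, 7.92 and 7.57 CPM in exposed cells, and 7.85 to 17.8 CPM in all earlier samples. FLT4 and EPHB3 were high in the 30-week controls alone, FLT4 with 8.48 to 15.2 CPM against at most 0.845 CPM in any other sample. EPHA7, also called downregulated, had 70, 27 and 26 counts in these controls and 0 in all other samples. It was tested only through that group, so its call follows largely from the filter. In each list 0 genes were called at 24 h and at 15 weeks (edgeR), which follows from 0% of all tested genes being called then. The plot of the receptor pathway lists shows these changes side by side.

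**Figure D4:**
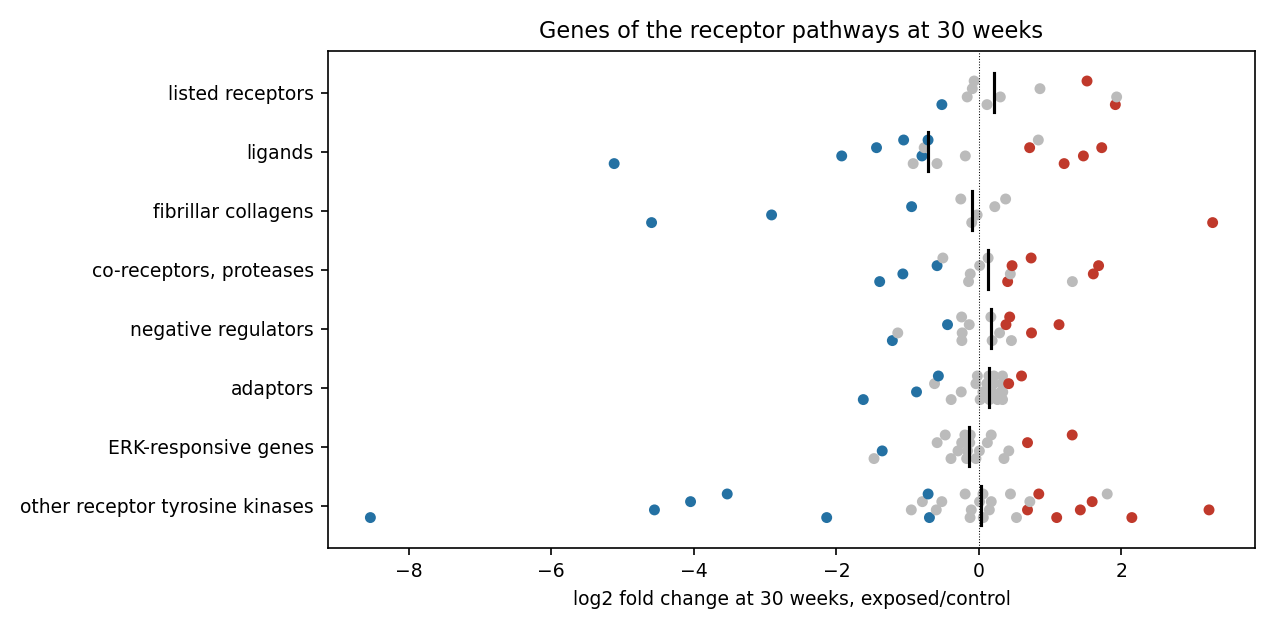
Fitted log2 fold change at 30 weeks, exposed against control cells (horizontal axis), of each tested gene of the receptor lists, with the median as a black bar. Red and blue genes passed an adjusted p of 0.05 upward and downward, grey genes did not, and fitted values of genes at the floor in a group depend on the prior count. The list medians run from -0.71 for the ligands to 0.21 for the 10 receptors, and each list holds called genes in both directions.

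The genes whose 6 condition means were most like those of a receptor were sought among 9431 genes with at least 10 CPM on average, by the root mean square difference of centred log2 CPM. For MET these were AKAP12, at a difference of 0.18 where MET itself ranged over 3.11, ZFP30 (0.19) and NALCN (0.20). For DDR2, which ranged over 3.99, the nearest were MX1 (0.42), PRKX (0.42) and LYPD6 (0.44). OCIAD2, GADD45A and ITPKC (0.081 to 0.089) were nearest to DDR1, TMEM147, TAF6 and ACVR1 (0.033 to 0.044) to AXL, and NEO1, TST and MYLK (0.16 to 0.18) to PDGFRB. These likenesses rest on 6 means that share libraries and describe them only.

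Genes near the called receptors moved in both directions, with called shares near those of their chromosomes. Within 1 Mb of MET 11 genes were tested at 30 weeks, of which 2 were upregulated and 1 downregulated, with a median of 0.11 against 0.016 over the 802 tested genes of chromosome 7, of which 100 were upregulated and 81 downregulated. The nearest were CAV1 (-0.17) and CAV2 (-0.45, adjusted p = 0.0325), the caveolin genes, on the near side, and CAPZA2 (0.017) and ST7-AS1 (0.20) beyond MET. Near DDR2, 4 of 16 tested genes were upregulated and 1 downregulated (median 0.38, chromosome 1 at -0.039 with 249 upregulated and 253 downregulated of 1739), and its nearest downstream neighbours HSD17B7 (0.67, adjusted p = 0.00268) and CCDC190 (1.27, adjusted p = 0.00751) were both upregulated (HSD17B7 has a pseudogene copy, which makes its counts less certain), while UAP1 (0.33) and UHMK1 (0.27) upstream did not pass. Near DDR1, in a gene-dense region, 2 of 75 were upregulated and 11 downregulated (median -0.15, chromosome 6 at -0.048 with 90 upregulated and 123 downregulated of 916), VARS2 (-0.39, adjusted p = 0.032) among them, and FLOT1, IER3 and GTF2H4 did not pass.

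The promoters of MET and DDR2, the receptors called upregulated with exposure at 30 weeks, were read from RefSeq (GRCh38.p14). For MET it is the 250 bases before its only listed start, chr7:116671946-116672195 on the plus strand, and for DDR2 the 223 bases chr1:162632214-162632436 before the exons of the third of its 3 listed starts. Capitals mark the GC box, GGGCGG on either strand, as bound by Sp1-type factors.
MET: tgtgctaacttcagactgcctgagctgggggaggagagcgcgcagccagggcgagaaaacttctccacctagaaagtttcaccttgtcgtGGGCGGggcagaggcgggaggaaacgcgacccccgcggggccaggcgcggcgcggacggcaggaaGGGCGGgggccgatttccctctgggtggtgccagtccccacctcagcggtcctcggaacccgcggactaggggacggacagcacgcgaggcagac
DDR2: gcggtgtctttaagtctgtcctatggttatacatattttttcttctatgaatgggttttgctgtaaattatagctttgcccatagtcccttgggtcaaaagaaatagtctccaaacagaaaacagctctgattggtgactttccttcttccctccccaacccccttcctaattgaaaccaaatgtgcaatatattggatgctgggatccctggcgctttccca
The MET stretch holds 2 GC boxes and is 68.4% G+C, and the DDR2 stretch holds none and is 42.2% G+C, where the median over 35116 promoters is 58%. An AP-1 motif (TGANTCA) or the E-box CAGGTG, searched on both strands, occurs in neither, nor do the 250-base windows of the other starts of DDR2 hold any of these motifs. The GC box occurs in 42.6%, the AP-1 motif in 6.57% and the E-box in 17.5% of all promoter windows of 250 bases. Over the 23 windows of the 10 receptors 12 held a GC box, 2 an AP-1 motif and 5 the E-box. Binding was not measured, and these matches describe the letters only.

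Some counts carry a further uncertainty. Whether counting used the strand, and how reads mapping to several places were treated, are not given in the sources used here. AXL overlaps an antisense RNA and ALK overlaps CLIP4 on the other strand, ROS1 and PDGFRA each overlap a read-through gene, and DDR1 holds a microRNA gene.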

How the data were processed

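The authors deposited raw RNA-seq counts per gene, not normalized. Reads had been trimmed and filtered with Rfastp, mapped to GRCh38 (hg38 in the submitters' processing notes, which also list bcl2fastq and featureCounts) and counted with Rsubread, from stranded libraries of total RNA depleted of ribosomal RNA. The table holds 28395 Entrez gene numbers in 15 samples, 27745 of them matched to a symbol, and 0 columns were left out. The study itself tested with limma, voom and surrogate variables.

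The analysis used edgeR 4.0.16 in R 4.3.3. Genes passing filterByExpr on the 6 conditions (16740) were scaled by TMM, and all 15 samples entered a quasi-likelihood fit with a mean for every condition. P-values were corrected for all tested genes after Benjamini and Hochberg. Standard errors were derived from the fitted log2 fold change and the F statistic of its test. The 95% intervals apply a t quantile of 2.12 to every gene, so they are approximate. Log2 CPM used a prior count of 2. Depth was 23143202 to 31459990 counts per sample. The procedure was tested on simulated data, where at 30 weeks the fit of all 15 samples recovered the changed genes but made more false calls than its threshold allows, so that its 30-week adjusted p-values may be too small. The fit of 30 weeks alone is given beside the receptors called there. Alternatives used DESeq2 1.42.0, limma 3.58.1 and sva 3.50.0 (2 surrogate variables), other filters and scalings, each time point fitted alone, stricter thresholds, a replicate block and each of the 15 samples left out. The counts of the pathway lists under 3 of these alternatives were added after seeing the data.

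The receptors, the gene lists and the alternatives were chosen with earlier results of these data known, and the lists of pathway genes were taken from general knowledge. All 10 receptors are named, together with every ligand at 1 CPM or more in some condition, up to 4 called genes with the largest changes per other list at a 30-week mean of at least 1 CPM, the 3 genes most like each receptor over 10 CPM, and the nearest neighbours of called receptors. HGF, NRTN, PSPN, ALKAL1, ALKAL2, GFRA2, GFRA3, GFRA4, GFRAL and EPHA7 are named although they fall outside these rules. CD3E and the other named genes of the cell type marker lists come from those lists, and GRHL2, OVOL1 and NKX2-1 were picked from them after their values were seen. Gene positions and promoters come from RefSeq GRCh38.p14, and exon lengths and overlaps from GENCODE.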

Additional observations from a re-analysis of the deposited data

Results flagged for a closer look

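The change of MET between exposed and control cells differed between 30 and 15 weeks by 1.16 on the log2 scale (edgeR interaction term, adjusted p = 0.0056), and that of DDR2 by 1.59 (adjusted p = 0.0018). At 30 weeks 4 of 4 exposed samples lay above all controls for both genes. The time points also differ in batch and in the number of samples, which cannot be told apart from time here. No receptor had an exposed sample at 30 weeks far enough from the other 3 to pass Dixon's criterion, which was applied to that group only.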

How the results depend on the processing

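The log2 fold change of MET at 30 weeks stayed between 1.42 and 1.62 over 17 alternatives and that of DDR2 between 1.73 and 2.02, each called in all 17, with adjusted p-values up to 0.000259 and 0.000109. The number of receptors called at 30 weeks (3) was between 2 and 4, and was 3 with the replicate number as a block. The correlation of deviations between samples of the same number was -0.060 at 24 h, 0.029 at 15 weeks and -0.118, 0.303 and 0.0981 at 30 weeks, so the numbers were not taken to pair samples. Other counts moved: 1 in place of 0 at 15 weeks with each time point fitted alone, 5 in place of 3 for controls from 15 to 30 weeks with DESeq2 and with limma-voom plus surrogate variables, and 1 in place of 2 for exposed cells over that time at a fold change of at least 2. For controls from 24 h to 15 weeks, leaving out a replicate gave 3 to 5 in place of 6. The cause of these moves was not tested, other than the stricter threshold by its construction.

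Of 431 recomputed values of single receptors 25 changed sign, all of values that passed no test. With surrogate variables RET at 24 h became 0.24, PDGFRA 0.050 at 24 h, 0.16 at 15 weeks and -0.19 at 30 weeks, and MERTK at 15 weeks -0.0014, and limma-voom gave PDGFRA 0.020 at 24 h. Leaving out a replicate moved other such values across 0: at 24 h RET (-3.70 to 3.34), AXL (-0.025 to 0.099), ALK (-0.037 to 0.79), ROS1 (-0.098 to 0.51), DDR2 (-0.16 to 0.059) and PDGFRA (-0.46 to 0.51), at 15 weeks AXL (-0.16 to 0.082), MERTK (-0.025 to 0.12), PDGFRA (-0.40 to 0.20) and PDGFRB (-0.30 to 0.14), and at 30 weeks AXL (-0.18 to 0.020), ALK (-0.24 to 0.21), PDGFRA (-0.40 to 0.58) and PDGFRB (-0.32 to 0.043). Depth limits RET, ROS1 and PDGFRA, whose counts reach 0 in some libraries.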
